A study of Drosophila melanogaster with 21 samples.

Results

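The 37 genes described here encode the machinery with which fly photoreceptors detect light: the rhodopsins, the enzymes that make their chromophore, the G protein cascade and its channels, the proteins that end the response, 2 structural proteins of the light-sensing membrane, 2 transcription factors of the photoreceptor and a receptor on the neurons that photoreceptors contact. They were listed by name, and all 37 were found by current symbol or synonym among the 17559 genes of the deposited table of RPKM. These values are reads scaled to gene length and to a library size adjusted for each head. Of the 37 genes, 36 reached 1 RPKM in at least 5 heads and were tested, among 10501 genes tested in all. The remaining member was ninaD, a scavenger receptor for carotenoid uptake, which reached 1 RPKM in 2 heads only.

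The data came from 21 heads of single female flies (*Drosophila melanogaster*), 1 library for each head, in 4 groups. The groups were 5 heads of fed untrained flies (the naive group), 5 heads of flies that were starved and not trained, 6 heads of starved flies collected 1 h after training with odor and sucrose, and 5 heads of such flies collected 4 h after it. Starvation was shared by all groups except the fed one, and strain and age were not given in the labels. Each trained group was set against starved and against fed heads, starved against fed heads, and 4 h against 1 h, so that several comparisons shared the same heads.

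In the fly retina, light converts rhodopsin to metarhodopsin, which activates a Gq protein and through it phospholipase C, and the breakdown of membrane phosphoinositide leads to opening of the TRP and TRPL cation channels. Arrestins bind metarhodopsin and end its activity, and calcium entering through the channels adjusts the response. Each ommatidium has outer photoreceptors with the rhodopsin encoded by ninaE and an inner pair, R7 and R8, which in the pale type carry Rh3 and Rh5 and in the yellow type Rh4 and Rh6, whereas Rh2 is the opsin of the ocelli.

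Each head had between 36076678 and 67918703 reads on genes. Photoreceptor RNA was abundant in each head, as ninaE had the second-highest median RPKM in the table (rank 2) and Arr2, the major arrestin, ranked 6. Fed replicate 2 stood apart from the other heads. All 36 tested genes were below the mean of the fed heads in it (0 of 36 above), with a median deviation of -0.28 on the log2(RPKM + 1) scale. It also had 30894 RPKM of the 7SL RNA gene 7SLRNA:CR32864, against 11.1 to 90.7 RPKM in the other 20 heads. Calls, list medians and most fold changes that rest on fed heads are given also without it.

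The 37 genes together took the largest share of reads at 4 h. They held 3.22% to 5.12% of the reads on genes in fed heads, 4.11% to 6.00% in starved heads, 4.98% to 6.14% at 1 h and 5.84% to 6.33% at 4 h. ninaE alone held 1.15% to 1.86% in fed heads, 1.24% to 1.98% in starved heads, 1.84% to 2.44% at 1 h and 2.25% to 2.56% at 4 h. The summed share at 4 h did not overlap that of fed heads, and it did overlap those of starved and 1 h heads. Most of the summed RPKM came from the rhodopsins (means of 15342 RPKM at 4 h and 11504 RPKM in starved heads) and the genes that end the response (8174 and 6683 RPKM). Sums of the channel (2798 and 2779 RPKM) and G protein genes (788 and 780 RPKM) differed little. Those of the phosphoinositide (665 and 689 RPKM) and structural genes (351 and 362 RPKM) were lower at 4 h. Shares depend on the rest of the library, and the yolk protein genes Yp1, Yp2 and Yp3, which the fat body makes, took 0.0206% to 3.35% of reads over the starved and trained heads, against 4.80% to 9.09% in fed heads. Their part in the shares was not tested. In RNA of a whole head, fewer photoreceptors and less RNA per photoreceptor cannot be told apart.

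**Figure D1:**
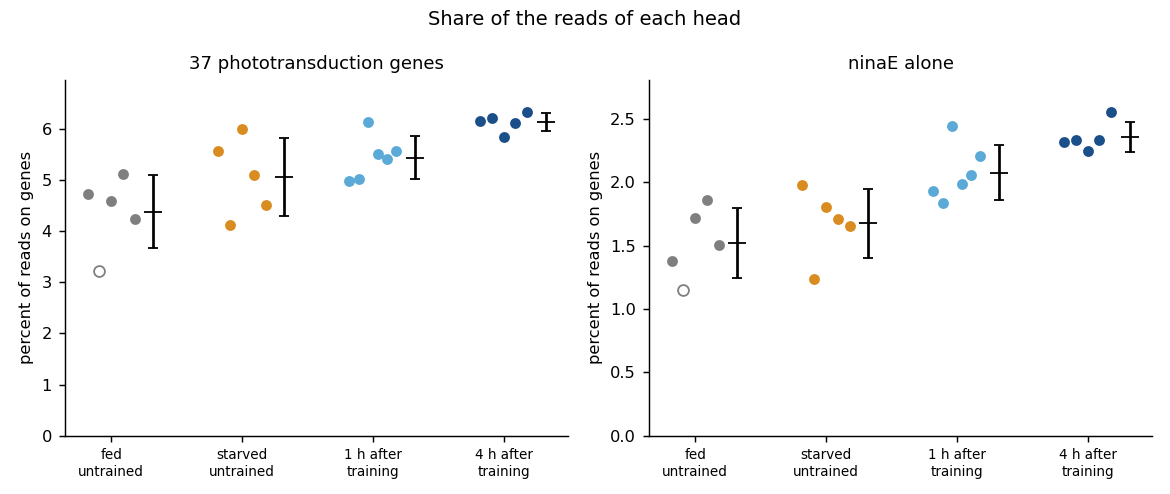
Percent of the reads on genes taken by the 37 phototransduction genes (left) and by ninaE alone (right), with 1 point per head and the mean ± SD beside each group. The open circle is fed replicate 2, the lowest head in the left panel at 3.22%, and the 5 heads at 4 h lie between 5.84% and 6.33%.

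Across the 6 comparisons few of the genes passed the threshold, and most differences were small. A gene was called at a Benjamini-Hochberg adjusted p below 0.05 over all genes tested, by limma on log2(RPKM + 1). In starved against fed heads 0 of 36 were called (6 had an unadjusted p under 0.05, which is 16.7% beside 19.4% of all genes tested, and voom weights on the recovered reads also called 0), where 0.562% of all genes tested were called higher and 0.952% lower. At 1 h against starved heads 0 were called (3, or 8.33%, at an unadjusted p under 0.05 beside 13.6% of all genes, and 0 by voom), where the background was 0.448% higher and 0.105% lower. At 4 h against 1 h 0 were called (7, or 19.4%, at an unadjusted p under 0.05 beside 12.8% of all genes, and 0 by voom), where the background was 0.0286% higher and 0.0571% lower.

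Calls were made in the other comparisons. At 4 h against starved heads 3 genes were called higher (ninaE, Arr1 and Pph13) and 1 lower (ort), where 3.62% of all genes were called higher and 2.75% lower. An unadjusted p under 0.05 was found for 22.2% of the 36 genes and 22.2% of all genes. With the total RPKM of all heads made equal, none of the 4 genes passed (limma adjusted p between 0.128 and 0.315). At 1 h against fed heads 2 genes were called higher (Pph13 and laza) and 0 lower, with 2 calls by voom, where the background was 5.13% higher and 3.85% lower. That share of the 36 genes is close to the background, and 9 genes (25.0%) had an unadjusted p under 0.05, beside 28.2% of all genes. At 4 h against fed heads 4 genes were called higher (Rh5, Rh6, Arr1 and Pph13) and 0 lower, with 7 calls by voom, where the background was 1.7% in each direction. An unadjusted p under 0.05 was found for 14 of the genes (38.9%), beside 20.1% of all genes. Without fed replicate 2, Pph13 was the 1 gene called in each comparison of trained with fed heads. Of all genes tested, 3.44% were then called at 1 h and 1.02% at 4 h against fed heads. Groups without overlap were also found among all genes tested. At 4 h against starved heads 4 of the 36 genes were higher without overlap and 1 lower, beside 4.52% and 5.10% of all genes. At 4 h against fed heads these were 10 and 0, beside 4.16% and 4.76%. At 1 h against fed heads they were 2 and 0, beside 2.97% and 1.75%. At 4 h against 1 h they were 3 and 1, beside 1.78% and 1.49%.

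As a list, the genes leaned higher in each comparison with fed heads. Their median log2 fold change was 0.11 for starved, 0.089 for 1 h and 0.14 for 4 h against fed heads, with 32, 28 and 30 of 36 above 0, whereas the median over all genes tested lay between -0.014 and 0.0016 in the 6 comparisons. Without fed replicate 2 these medians were 0.034, 0.018 and 0.083, with 25, 23 and 24 of 36 above 0. Rescaling every head to the same total RPKM moved the median of all genes by 0.28, 0.25 and 0.30 in these comparisons, and the medians of the 36 genes were then 0.43, 0.39 and 0.47. Against starved heads the median of the 36 genes was -0.015 at 1 h (16 above 0) and 0.033 at 4 h (24 above 0), and between 4 h and 1 h it was 0.057 (27 above 0).

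**Figure D2:**
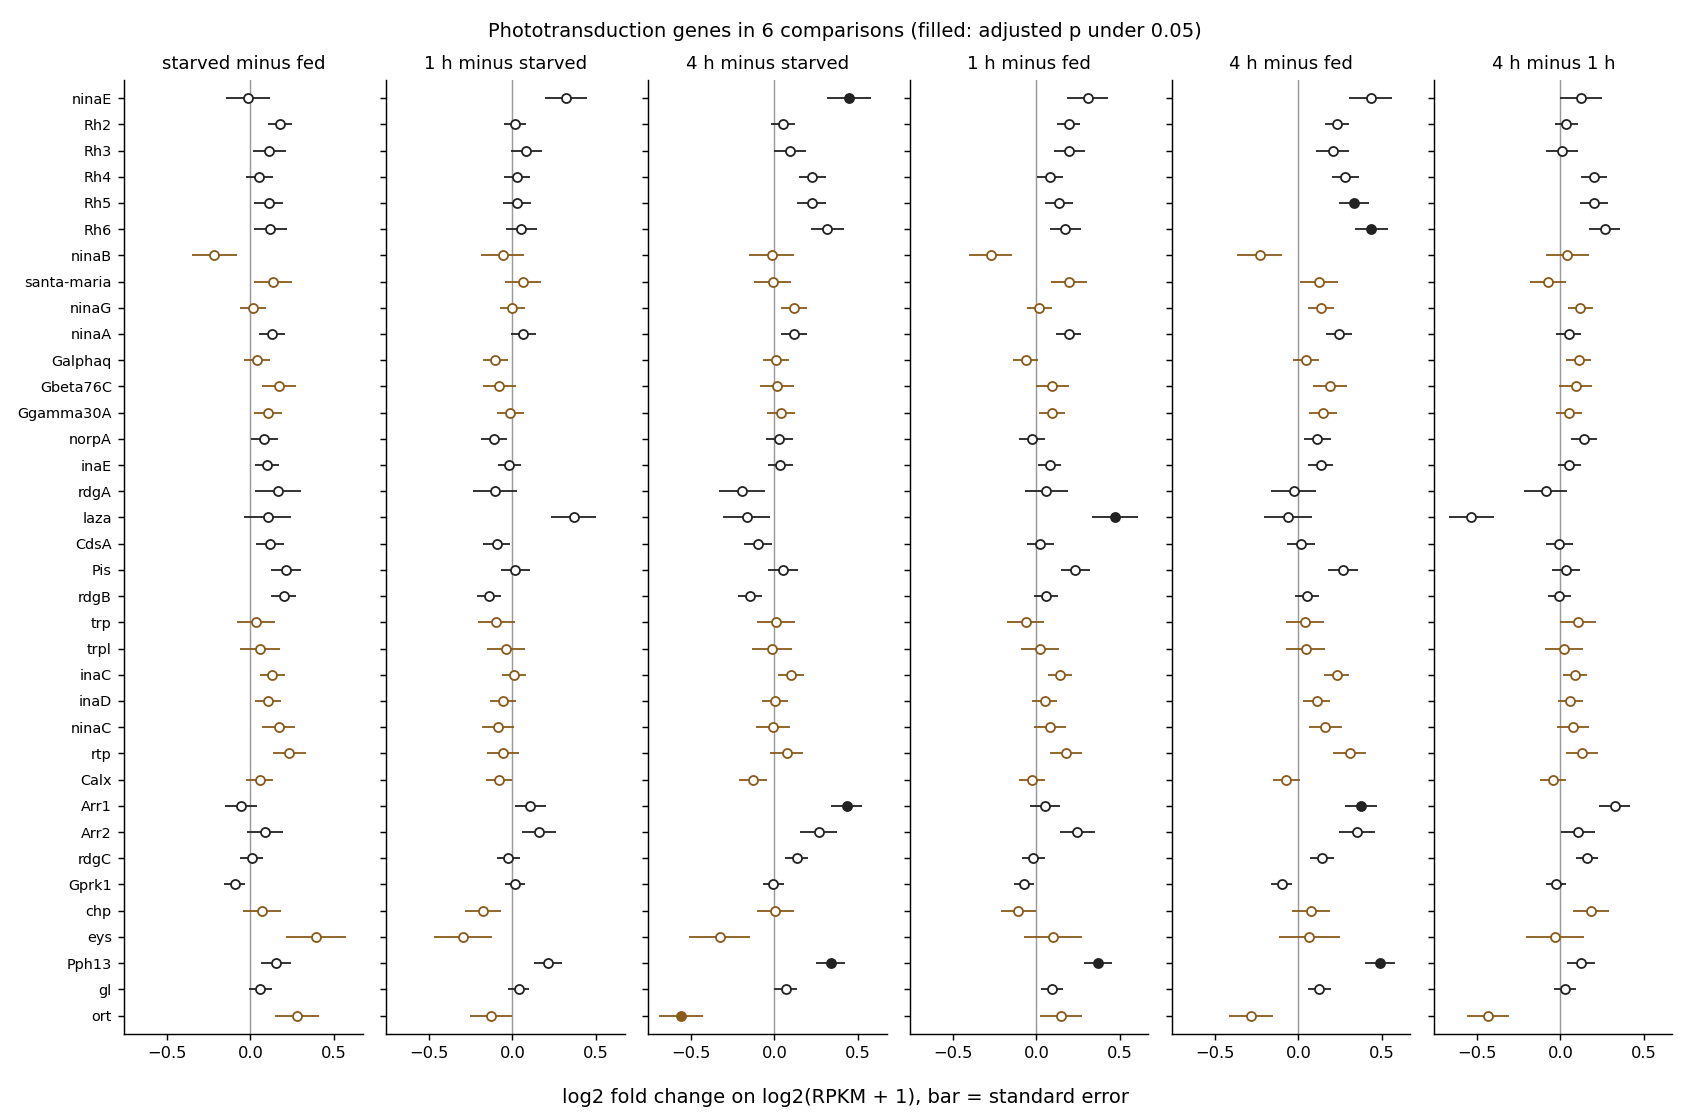
Log2 fold change on the log2(RPKM + 1) scale of the 36 tested genes in the 6 comparisons, with the standard error as a bar. Filled points passed the adjusted p threshold, and colors alternate between functional groups from the rhodopsins at the top to ort at the bottom. The 10 filled points are 9 higher, between 0.33 and 0.49, and ort lower, at -0.56.

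All 6 rhodopsin genes had their highest group mean at 4 h. Of these, ninaE, the opsin of the outer photoreceptors R1 to R6, was called against starved heads, and Rh5 and Rh6, the opsins of R8, were called against fed heads. ninaE (3R, 19886255 to 19888206 in BDGP6.54) had 13453, 13773, 13888, 13963 and 15139 RPKM at 4 h, against 12042, 8549, 10026, 10389 and 10714 RPKM in starved heads. Each head at 4 h was above each starved head. The means were 14043 ± 643 RPKM at 4 h and 10344 ± 1259 RPKM in starved heads (SD, n = 5 each), 0.45 apart on the log2 scale (SE 0.13, limma adjusted p = 0.0464). This call was near the threshold. It was lost without any one of the 5 heads at 4 h or without starved replicate 2, 4 or 5 (limma adjusted p up to 0.125), and kept without starved replicate 1 or 3.

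The heads at 1 h were intermediate for ninaE. They ran from 12004 to 14074 RPKM with a median of 12582 RPKM, against 8881, 8940, 12075, 11636 and 10873 RPKM in fed heads. The 1 h and fed heads overlapped, by fed replicate 3 alone. Log2 fold changes of ninaE were 0.32 at 1 h against starved heads (limma adjusted p = 0.268), 0.31 at 1 h against fed heads (0.118) and 0.43 at 4 h against fed heads (0.0769), none of which passed the threshold. The last 2 of these, without fed replicate 2, were 0.25 and 0.38 (limma adjusted p = 0.268 and 0.174). In starved against fed heads ninaE differed by -0.016 (SE 0.13).

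Rh6, the opsin of yellow R8, was the rhodopsin with the largest difference from fed heads. It had 146, 153, 133, 154 and 155 RPKM at 4 h, against 114, 95.02, 114, 117 and 107 RPKM in fed heads. The groups did not overlap, and the log2 fold change was 0.44 (SE 0.097, limma adjusted p = 0.0257). The call was lost without fed replicate 2 or 6 or without replicate 3 or 6 at 4 h (limma adjusted p up to 0.0728, with a log2 fold change of 0.39 without fed replicate 2). Starved heads split on this gene, with 138 and 143 RPKM in replicates 1 and 3 and 104 to 107 RPKM in the other 3, so that the log2 fold change of 0.32 at 4 h against starved heads did not pass (limma adjusted p = 0.0570). Rh6 (3R, 15483158 to 15484699) had 106 to 137 RPKM at 1 h (median 124).

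Rh5, the opsin of pale R8 (2L, 12008153 to 12009832), had 192, 186, 206, 190.2 and 210.4 RPKM at 4 h. Against this stood 176, 122, 178, 151 and 159 RPKM in fed heads. The groups did not overlap, and the log2 fold change was 0.33 (SE 0.088, limma adjusted p = 0.0430). The call was kept only without fed replicate 1 among the omissions of single heads. Without fed replicate 2, the lowest head, it was 0.25 (limma adjusted p = 0.0970), and without each other head the adjusted p was at most 0.120. The 4 h heads were also above all starved heads, which had 150.3 to 180.1 RPKM, and above all 1 h heads, which had 161 to 181 RPKM, and these differences of 0.22 and 0.20 on the log2 scale did not pass (limma adjusted p = 0.135 and 0.331).

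The R7 opsins and the ocellar opsin were not called in any comparison. Rh4 averaged 336 ± 15.6 RPKM at 4 h and 276 ± 21.4 RPKM in fed heads (SD, n = 5 each), with all heads at 4 h above all fed heads (log2 fold change 0.28, limma adjusted p = 0.0650). Rh3 averaged 463 ± 35.1 RPKM at 4 h and 403 ± 51.0 RPKM in fed heads (log2 fold change 0.21, limma adjusted p = 0.245), and its groups overlapped. Rh2 averaged 155 ± 10.4 RPKM at 4 h and 133 ± 13.9 RPKM in fed heads (log2 fold change 0.23, limma adjusted p = 0.0840), also with overlap. When fed replicate 2 was left out, these log2 fold changes were 0.23 for Rh4, 0.12 for Rh3 and 0.19 for Rh2 (limma adjusted p between 0.163 and 0.496).

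The signs of the 6 rhodopsins were alike in 5 comparisons. All 6 log2 fold changes were above 0 at 1 h and at 4 h against fed and against starved heads, and at 4 h against 1 h. Their medians were 0.31 at 4 h and 0.18 at 1 h against fed heads, 0.23 at 4 h and 0.040 at 1 h against starved heads, and 0.16 at 4 h against 1 h. The 6 signs held under every alternative run for 4 h against fed and against starved heads (21 alternatives each) and for 1 h against fed heads (22), the rescalings included. They did not hold in all alternatives for 1 h against starved heads, where rescaling to the same 75th percentile or the same total RPKM left 5 of 6 above 0 and omission of starved replicate 2 or 5 left 4 and of replicate 3 at 1 h left 5. For 4 h against 1 h the replicate block or omission of replicate 1 or 5 at 1 h or of replicate 4 at 4 h left 5.

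**Figure D3:**
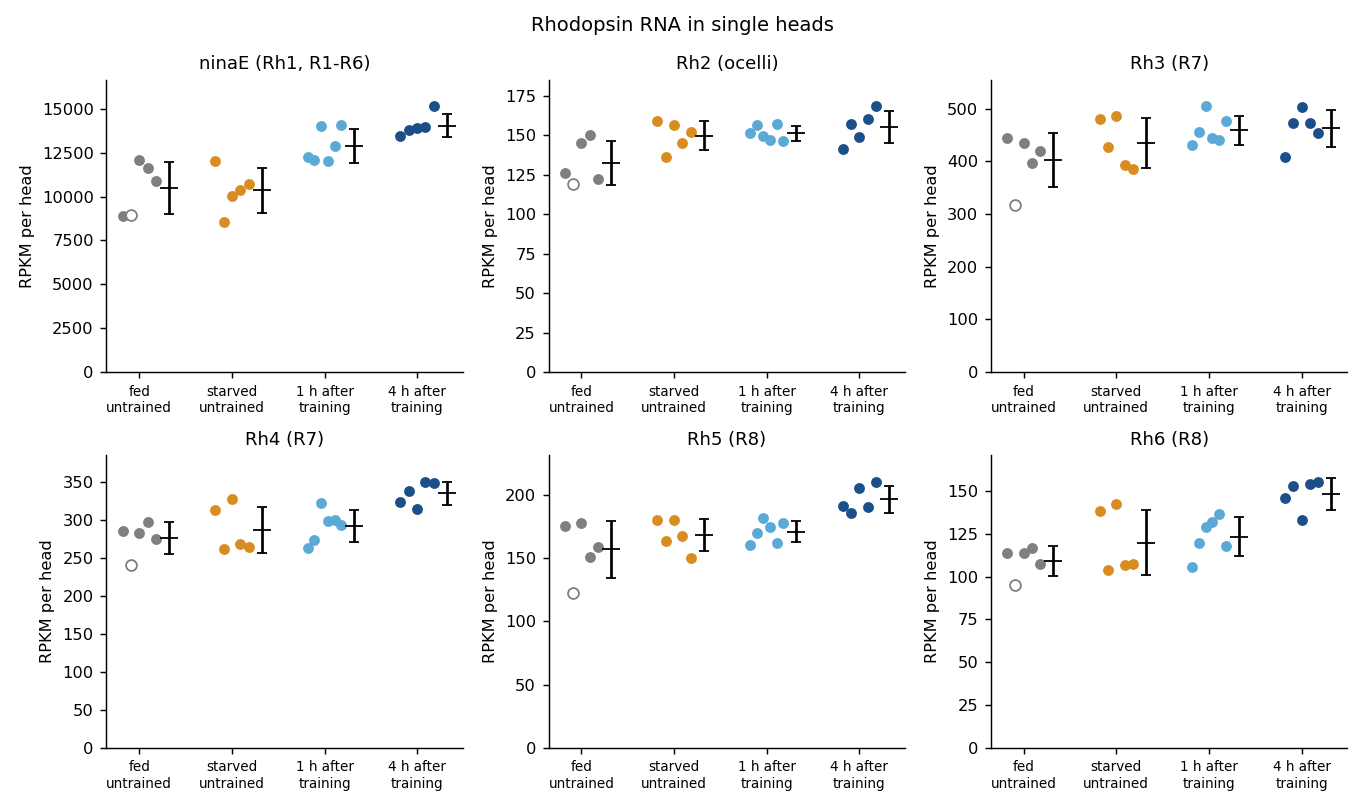
RPKM of the 6 rhodopsin genes in each head, with the mean ± SD beside each group and fed replicate 2 as an open circle. For ninaE the 5 heads at 4 h lie between 13453 and 15139 RPKM and all starved heads at 12042 RPKM or below, and for Rh6 the heads at 4 h lie at 133 to 155 RPKM above all fed heads.

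Ratios of opsins within a head do not depend on the scaling between heads. The R7 ratio Rh3/Rh4 ran from 1.26 to 1.66 over the 21 heads and the R8 ratio Rh5/Rh6 from 1.19 to 1.58. The largest difference between groups was in Rh3/Rh4 at 4 h against 1 h, with mean ratios of 1.38 and 1.57 (log2 difference -0.19, exact two-sided permutation p = 0.0195). With adjustment over the 12 ratio tests this was 0.234, so that it did not pass, and no other ratio had a smaller exact p. Without replicate 4 at 4 h, whose ratio of 1.60 was above the other 4 heads, the log2 difference at 4 h was -0.24 from 1 h and -0.19 from starved heads. Both then passed (adjusted exact permutation p = 0.0476), and neither passed when any other single head was left out. With all heads kept, the smallest p that the designs allow is 0.00216 for 6 against 5 heads and 0.00794 for 5 against 5. The order of the R7 and R8 opsins, in which the pale member had more RPKM than the yellow one, was the same in all 21 heads.

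Across the 21 heads the R7 and R8 ratios were correlated. With the group means subtracted, log2 Rh3/Rh4 and log2 Rh5/Rh6 had a Pearson r of 0.69 (permutation p = 0.0005) and a Spearman rho of 0.67 (permutation p = 0.00097) over the 21 heads. Without the 2 heads farthest from the median of log2 Rh3/Rh4, which were replicate 4 at 4 h and fed replicate 2, r was 0.58 (permutation p = 0.0107). Leaving out each group in turn gave r between 0.58 and 0.80, and without subtraction of group means it was 0.62. Without fed heads the Spearman rho was 0.49 (permutation p = 0.0529), so that the rank relation did not pass there. Within single groups r was 0.27 in starved, 0.63 in 4 h, 0.87 in 1 h and 0.98 in fed heads. With 5 or 6 heads each, these groups are too small to be ranked. The 4 opsin values of a head came from 1 library, and 1 relation was tested, with no adjustment.

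**Figure D4:**
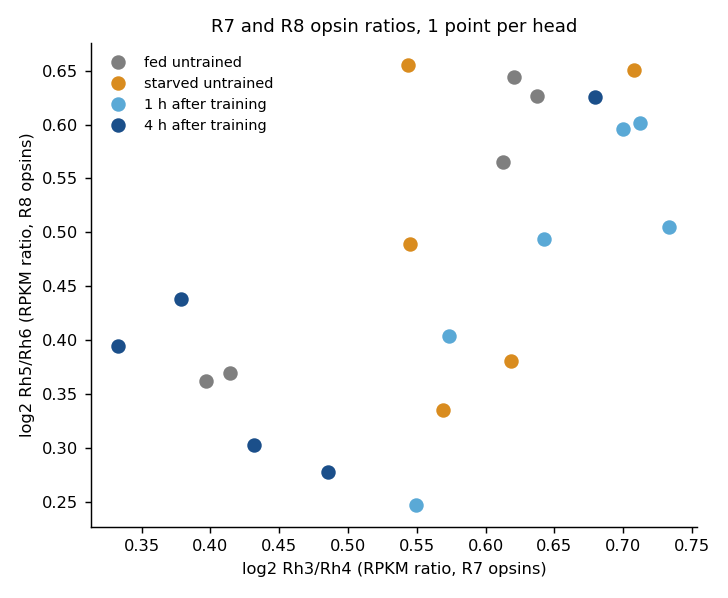
Log2 ratio of Rh3 to Rh4 RPKM (horizontal axis, R7) and of Rh5 to Rh6 RPKM (vertical axis, R8), with 1 point per head colored by group. Heads with a high R7 ratio tended to have a high R8 ratio (r = 0.69 with the group means subtracted), and replicate 4 lies apart from the other 4 heads of the 4 h group, at ratios of 1.60 and 1.54.

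Genes for the chromophore and for opsin maturation had 0 calls in any comparison. ninaB, the carotenoid oxygenase that makes retinal, had the lowest log2 fold change of the 36 genes in starved heads (-0.22) and in 1 h heads (-0.27) against fed heads (limma adjusted p = 0.373 and 0.175), and without fed replicate 2 these were -0.23 and -0.29 (0.516 and 0.231). It averaged 32.3 ± 5.82 RPKM at 1 h (SD, n = 6) and 39.0 ± 5.18 RPKM in fed heads (SD, n = 5), with overlap. santa-maria, a scavenger receptor for carotenoids that acts outside the retina, had 15.9 to 27.1 RPKM over all heads, and ninaG, an oxidoreductase of chromophore synthesis, 13.3 to 18.6 RPKM. ninaD was at 0.207 to 1.20 RPKM and was not tested. ninaA, the cyclophilin that escorts the ninaE rhodopsin, had 57.0 to 82.2 RPKM, but all 871 bases of its exons lie over exons of CG15824 on the opposite strand, and reads of the 2 genes cannot be told apart in libraries that do not keep the strand.

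The G protein and phosphoinositide genes mostly differed little. The eye Gq subunits Galphaq, Gbeta76C and Ggamma30A had 0 calls and log2 fold changes between -0.10 and 0.19 in the 6 comparisons (Galphaq shares 3050 of its 6910 exonic bases with CG45086). Among the 7 genes of phospholipase C signaling and phosphoinositide recycling (norpA, the phospholipase C, inaE, a diacylglycerol lipase, rdgA, the diacylglycerol kinase, laza, a phosphatidic acid phosphatase, CdsA and Pis, which rebuild phosphatidylinositol, and rdgB, which transfers it), only laza was called. The other 6 had log2 fold changes between -0.19, of rdgA at 4 h against starved heads, and 0.27, of Pis at 4 h against fed heads.

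laza, whose product turns phosphatidic acid back into diacylglycerol in opposition to the kinase rdgA, was highest at 1 h. It ran from 27.5 to 42.6 RPKM there (median 39.1), against 30.0, 21.6, 29.8, 26.9 and 24.7 RPKM in fed heads. In 5 of the 6 heads at 1 h it was above all fed heads, and replicate 1 overlapped them. The log2 fold change was 0.47 (SE 0.14, limma adjusted p = 0.0378). The call was lost without fed replicate 2, 3, 5 or 6 or without replicate 3, 4 or 5 at 1 h (limma adjusted p up to 0.107, and 0.40 as the log2 fold change without fed replicate 2), and after rescaling to the same 75th percentile (0.0578). Against starved heads, which had 23.6 to 32.7 RPKM, laza at 1 h had a log2 fold change of 0.37. This was the highest of the 36 genes in that comparison, and it was not called. At 4 h laza (3L, 22458816 to 22461131) had 30.5, 21.01, 32.2, 26.0 and 19.0 RPKM. This was -0.53 against 1 h, the lowest of the 36 genes in that comparison (limma adjusted p = 0.114), and -0.063 against fed heads (0.829).

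The channels and the scaffold around them had 0 calls. These were trp and trpl, the light-gated cation channels, inaD, their PDZ scaffold, inaC, the eye protein kinase C, ninaC, a myosin III, rtp (retinophilin), which binds it, and Calx, the sodium-calcium exchanger. The median log2 fold change of the 7 genes lay between -0.056, at 1 h against starved heads, and 0.11, at 4 h against fed heads. Their summed level was 2633 to 2931 RPKM at 4 h, 2310 to 3286 RPKM in starved heads and 2058 to 2966 RPKM in fed heads, so that the heads at 4 h lay within the range of the starved heads.

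Of the 4 genes that shut off the response, Arr1 was called. Arr1, an arrestin (2L, 18078269 to 18081307), had 1577, 1708, 1739, 1762 and 1792 RPKM at 4 h, against 1493, 1128, 1327, 1252 and 1178 RPKM in starved heads. The groups did not overlap, and the log2 fold change was 0.43 (SE 0.095, limma adjusted p = 0.0107), which stayed past the threshold without any single head (limma adjusted p at most 0.0367). Fed heads had 1221, 1173, 1377, 1382 and 1468 RPKM, all below the heads at 4 h, for a log2 fold change of 0.38 (SE 0.095, limma adjusted p = 0.0366). This call was kept only without fed replicate 5 among the omissions of single heads (limma adjusted p up to 0.104, and 0.33 as the log2 fold change without fed replicate 2). At 1 h Arr1 had 1217 to 1502 RPKM (median 1379), below all heads at 4 h, and the log2 fold change of 0.33 at 4 h against 1 h, the highest of the 36 genes there, did not pass (limma adjusted p = 0.134). Its difference at 1 h was 0.11 from starved and 0.052 from fed heads.

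The other 3 shut-off genes were not called. Arr2, the more abundant arrestin, was chosen for description after its values were seen: it averaged 6371 RPKM at 4 h and 5019 RPKM in fed heads (log2 fold change 0.35, limma adjusted p = 0.0824), with no overlap, and without fed replicate 2 the log2 fold change was 0.28 (0.198). rdgC, the rhodopsin phosphatase, and Gprk1, a rhodopsin kinase, had 31.8 to 42.6 and 40.1 to 54.7 RPKM over all heads. Gprk1 had the smallest spread between heads of a group of all 36 genes (pooled SD 0.090 on the log2 scale).

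The structural genes chp (chaoptin, which holds the microvilli of the rhabdomere together) and eys (spacemaker, which fills the space between rhabdomeres) were not called. eys had the widest spread of the 36 genes (pooled SD 0.30 on the log2 scale, where the median of the 36 genes was 0.13 and that of all genes tested 0.17). It averaged 50.4 ± 11.1 RPKM in starved heads and 39.1 ± 14.8 RPKM in fed heads (SD, n = 5 each), the highest log2 fold change of the 36 genes in that comparison (0.40, limma adjusted p = 0.240). Fed replicate 1, at 65.2 RPKM, was above every starved head, and the other fed heads had 29.3 to 34.1 RPKM. The log2 fold change of eys without fed replicate 2 was 0.31 (limma adjusted p = 0.501). At 1 h it averaged 40.5 ± 7.04 RPKM (SD, n = 6), the lowest log2 fold change of the 36 genes against starved heads (-0.30, limma adjusted p = 0.464).

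Pph13, a homeodomain transcription factor required for rhabdomere formation and for expression of phototransduction genes, was called in 3 comparisons. It had 18.6, 19.8, 19.4, 19.7 and 21.1 RPKM at 4 h and 15.7 to 20.8 RPKM at 1 h (median 18.2), against 14.6, 11.0, 14.3, 14.5 and 14.6 RPKM in fed heads. All heads of both trained groups were above all fed heads. The log2 fold changes from fed heads were 0.49 at 4 h (SE 0.089, limma adjusted p = 0.00904) and 0.37 at 1 h (SE 0.085, limma adjusted p = 0.0165). Without fed replicate 2, the lowest head, they were 0.42 and 0.29 and still passed (limma adjusted p = 0.0207 and 0.0454), as they did without any other single head.

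Against starved heads Pph13 (2L, 577486 to 579549) passed the threshold at 4 h and not at 1 h. Starved heads had 17.8, 13.04, 16.3, 15.4 and 14.7 RPKM, all below the heads at 4 h, for a log2 fold change of 0.34 (SE 0.089, limma adjusted p = 0.0281). This call was lost without starved replicate 2, 4 or 5 or without replicate 3, 4 or 6 at 4 h (limma adjusted p up to 0.0899) and after rescaling to the same 75th percentile (0.0515). At 1 h against starved heads the log2 fold change was 0.21 (limma adjusted p = 0.281) and the groups overlapped. The difference between 4 h and 1 h, which tests the later against the earlier time directly, was 0.12 (limma adjusted p = 0.564). gl (glass), the zinc finger factor that specifies photoreceptors, had 13.2 to 19.1 RPKM and was not called.

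ort, which encodes the histamine-gated chloride channel with which lamina and medulla neurons receive photoreceptor signals, was the 1 gene called lower. It had 13.1, 12.5, 12.7, 12.9 and 7.79 RPKM at 4 h, against 16.99, 16.8, 19.0, 18.4 and 16.8 RPKM in starved heads. The groups did not overlap, and replicate 6 at 4 h was far below the other 4. The log2 fold change was -0.56 (SE 0.13, limma adjusted p = 0.0163). Without that head it was -0.43 (limma adjusted p = 0.0446), and the call was kept without any other single head. With total RPKM made equal between heads it was -0.53 (limma adjusted p = 0.153).

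The other groups of ort overlapped more. At 1 h it had 14.4 to 17.4 RPKM (median 16.1), all above the heads at 4 h, and the log2 fold change of -0.43 at 4 h against 1 h did not pass (limma adjusted p = 0.154). Fed heads had 20.4, 11.5, 14.3, 15.1 and 11.9 RPKM and overlapped the heads at 4 h (log2 fold change -0.28, limma adjusted p = 0.240). Starved heads were 0.28 above fed heads (limma adjusted p = 0.257). With fed replicate 2 left out, these differences were -0.36 at 4 h and 0.20 in starved heads (limma adjusted p = 0.191 and 0.540). ort lies at 3R, 19659748 to 19663672, and shares no exonic base with another gene, as was also true of the other 6 called genes.

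**Figure D5:**
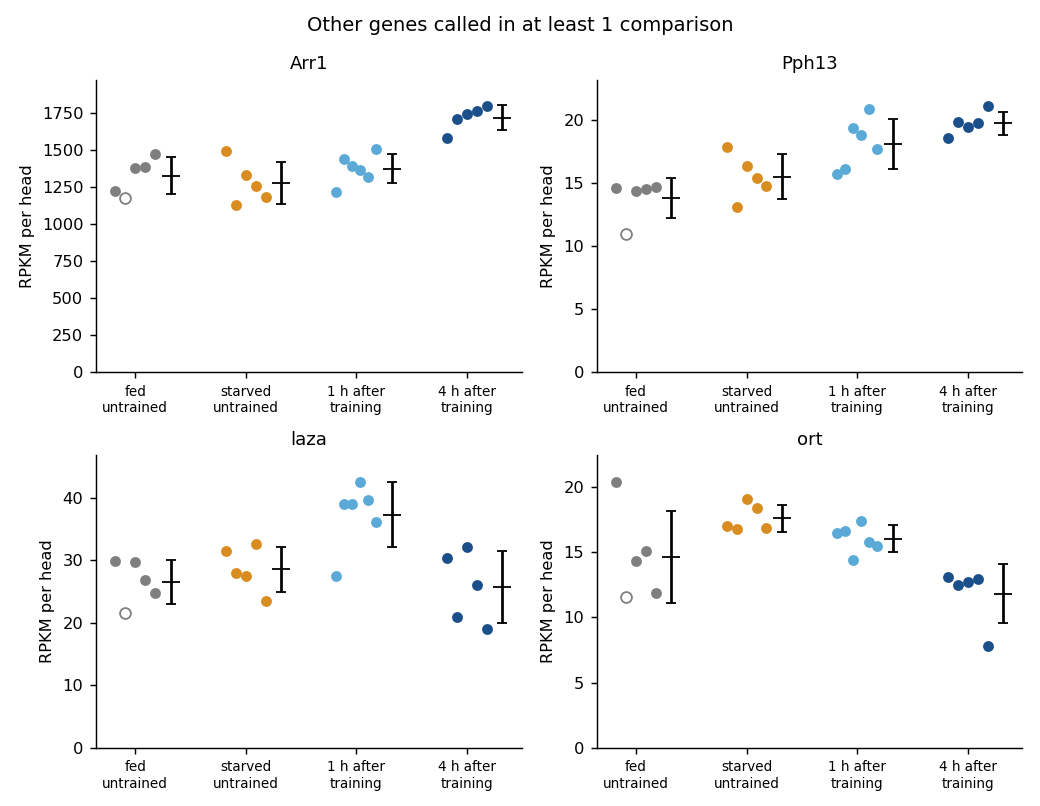
RPKM of Arr1, Pph13, laza and ort in each head, with the mean ± SD beside each group and fed replicate 2 as an open circle. Arr1 at 4 h lies between 1577 and 1792 RPKM above all other heads, laza is highest at 1 h (median 39.1 RPKM), and ort at 4 h lies below all starved and 1 h heads.

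Beyond these genes, 46 further genes of the eye were looked up, of which 44 were matched and 41 tested. Against starved heads 0 were called at 1 h and 0 at 4 h, beside 0.552% and 6.37% of all genes tested. In each of these, 6 genes (14.6%) had an unadjusted p under 0.05, beside 13.6% of all genes at 1 h and 22.2% at 4 h. In starved against fed heads 0 were called, beside 1.51%, and 4 (9.76%) had an unadjusted p under 0.05, beside 19.4%. At 4 h against 1 h 0 were called, beside 0.0857%, and 7 of the 41 had an unadjusted p under 0.05, beside 12.8%. At 1 h against fed heads 2 were called higher and 3 lower, where 5.13% of all genes tested were called higher and 3.85% lower. The higher genes were crb (crumbs, an apical membrane protein), with a log2 fold change of 0.26, and Itpr, the inositol trisphosphate receptor, with 0.20. The lower ones were Pdh, a retinol dehydrogenase of pigment cells (-1.17), RdhB, another retinol dehydrogenase (-0.90), and bw, a pigment transporter subunit (-0.90), with limma adjusted p between 0.0253 and 0.0439 over the 5 genes. At 4 h against fed heads only crb was called (0.28, limma adjusted p = 0.0476), where 1.7% of all genes tested were called higher. Without fed replicate 2, 0 of the 41 genes were called in either comparison, beside 3.44% of all genes at 1 h and 1.02% at 4 h. The 5 genes at 1 h then had limma adjusted p between 0.0631 and 0.0956 and crb at 4 h 0.130, with the same directions. Histamine transmission genes besides ort (Hdc, t, e, CarT, BalaT and HisCl1) had 0 calls, with a median of -0.14 at 4 h against starved heads and 0 of 6 called lower.

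Marker lists of other cells and of the clock moved with some of these comparisons. Of all genes tested, 0.952% were called lower in starved, 3.85% in 1 h and 1.7% in 4 h heads against fed heads. At 4 h against starved heads 2.75% of all genes were called lower. Of 7 fat body markers, 4 were called lower in starved, 6 in 1 h and 3 in 4 h heads against fed heads, and their summed levels were 219.5 to 21362 RPKM over starved and trained heads and 29152 to 64244 RPKM in fed heads. Hemocyte markers (5 tested) had 3 called lower at 4 h against fed heads and 1 against starved heads, with summed levels of 19.9 to 32.3 RPKM at 4 h, 44.5 to 72.6 RPKM in starved heads and 36.5 to 69.2 RPKM in fed heads. General neuron markers (7 tested) had 0 calls in these comparisons (0 and 2 at an unadjusted p under 0.05) and summed levels of 755 to 835 RPKM at 4 h, 756 to 897 RPKM in starved heads and 701 to 861 RPKM in fed heads. Glia markers (8 tested) had 1 called lower at 4 h against fed heads (Gs2), muscle markers (6 tested) had 0 calls with medians of -0.82 at 4 h against starved and -0.47 at 4 h against fed heads, and pigment cell markers (5 tested) had bw called at 1 h only. All 10 photoreceptor markers, which are among the 37 genes, were detected. Their summed levels were 22223 to 24334 RPKM at 4 h and 15760 to 20830 RPKM in starved heads. Most of these sums came from ninaE (means of 14043 and 10344 RPKM) and Arr2 (6371 and 5324 RPKM). The means of chp (312 and 311 RPKM), trp (435 and 436 RPKM) and ninaC (573 and 578 RPKM) hardly differed. Those of norpA, Rh3, Rh4, Rh5 and Rh6 were higher at 4 h. No gene of these lists was at 0 in all heads, and the part of the other cell types in the results was not tested. The markers of these cells called against fed heads without fed replicate 2 were 1 fat body gene in starved, 2 at 1 h and 1 at 4 h and 1 hemocyte gene at 4 h, with 0 of the glia and pigment cell lists. Of all genes tested 0.324% were then called in starved, 3.44% in 1 h and 1.02% in 4 h heads against fed heads.

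Of the 6 clock genes, per and vri were called higher and cry lower at 4 h against starved heads. There 3.62% of all genes tested were called higher and 2.75% lower. per averaged 12.96 RPKM at 4 h and 6.83 RPKM in starved heads, 0.83 apart on the log2 scale (limma adjusted p = 0.0013), and vri 22.6 RPKM at 4 h and 9.06 RPKM in starved heads, with 1.25 (0.0040). Both were also called higher at 4 h against fed heads, where 1.7% of all genes tested were called higher, also without fed replicate 2. The summed level of the 6 genes, 193 to 256 RPKM over all heads, overlapped between all groups. This sum says little about the calls, because per and vri were a small part of it and cry went the other way. The time of day at collection was not given in the sources used here, and the part of the clock in the results at 4 h was not tested.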

How the data were processed

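The authors made polyA libraries without strand from single heads and deposited one RPKM value per gene and head. Processing notes of the authors name CASAVA 1.8.2, TopHat2 2.0.13, dm6 and edgeR 3.18.1. One section of the Methods gives the same aligner, build and normalization for the appetitive data, and another names an older TopHat with dm3. Whole reads could be recovered from all 17212 genes above 0, which is 100.0% of them at a tolerance of 0.001 reads, with 16494 gene lengths equal to summed exons of BDGP6.54, from which coordinates and overlaps were taken. The library size behind the RPKM of a head was 0.812 (fed replicate 2) to 1.13 (starved replicate 3) times its reads on genes. Because RPKM values are not counts, log2(RPKM + 1) was compared with limma 3.58.1 in R 4.3.3 (lmFit, one mean per group over all 21 heads, eBayes with trend). Genes had to reach 1 RPKM in 5 or more heads (10501 genes), and p-values were adjusted over them by Benjamini-Hochberg. On this scale, changes of low genes come out too small. Opsin ratios were compared by exact two-sided permutation tests, and their relation with 100000 resamples. The fit was tested on simulated data.

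The genes and lists were chosen with earlier results of these data known. Values are given for the rhodopsins, each gene called, the gene below the minimum, and the highest and lowest fold change of each comparison, and further lists are named where called. Of the list genes, Camta, Pld, para, FASN1 and wupA were not matched and not used here. Alternatives were a pseudocount of 0.1, no minimum, a minimum mean of 5 RPKM, a common 75th percentile or total RPKM in every head, eBayes without trend or robust, a fit of the groups compared only, the replicate number as a block, sample quality weights, voom on the recovered reads and omission of each head. Omission of the 2 heads farthest in the opsin ratio was added after the data were seen. Heads are separate flies, and no deposited column was left unused. Figures used Python 3.11.15 with matplotlib 3.10.9.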

Additional observations from a re-analysis of the deposited data

Results flagged for a closer look

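In 8 of 156 sets of a gene or opsin ratio and a group, 1 head lay far from the others of its group for a gene. Its gap to the nearest head, as a share of the range, was above Dixon's 95% critical value. Chance alone gives this in about 1 in 20 separate groups, which is near the pooled rate here. All of these sets were in fed or 4 h heads, most of them in fed heads. Genes of the same head are not separate, so the pooled rate does not show whether chance gave these sets. Fed replicate 2 was low for Pph13 (11.0 RPKM, against 14.3 to 14.6 RPKM in the other fed heads), gl (13.2 RPKM, against 16.6 to 17.1) and rtp (343 RPKM, against 438 to 475). Fed replicate 1 was high for eys (65.2 RPKM, against 29.3 to 34.1) and inaE (16.3 RPKM, against 12.6 to 13.7), and fed replicate 5 for Gprk1 (54.7 RPKM, against 45.5 to 48.2). At 4 h, replicate 4 was low for inaE (13.8 RPKM, against 15.5 to 16.0) and replicate 6 for ort (7.79 RPKM, against 12.5 to 13.1).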

How the results depend on the processing

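Pph13 at 4 h against fed heads kept its call in all 21 alternatives, ort in 20 of 21, Pph13 at 1 h against fed heads in 21 of 22, and Arr1 against starved heads in 17 of 21. Fewer alternatives kept Rh6 (16 of 21), Pph13 against starved heads (12), laza (11 of 22), Arr1 against fed heads (10 of 21), ninaE (8) and Rh5 (8), and no called gene changed sign. The number of the 36 genes called at 4 h against fed heads (4) was 22 after rescaling to the same total RPKM, 16 with sample quality weights, 7 without a trend and 7 by voom, and 2 without a minimum. Of all genes tested 31.2%, 26.1%, 3.29%, 3.16% and 1.32% were called under these settings, beside 3.40% in the fit reported. At 4 h against starved heads (4) it was 0 after rescaling to the same total RPKM, 10 with quality weights, and 2 without a minimum and 2 in a fit of these groups alone. Of all genes tested 4.42%, 17.9%, 2.95% and 5.63% were called there, beside 6.37% in the fit reported. At 1 h against fed heads (2) it was 8 after rescaling to the same total RPKM, 4 without a trend, 0 in a fit of these groups alone, 1 without a minimum and 1 after rescaling to the same 75th percentile. Of all genes tested 20.6%, 9.02%, 1.25%, 4.14% and 7.17% were called there, beside 8.98% in the fit reported. Quality weights called 5 genes in starved against fed heads and 6 at 4 h against 1 h, where the count was 0, and 17.5% and 4.44% of all genes. The cause of these shifts was not tested. Leaving out single heads gave 0 to 4 genes in starved against fed heads (4 without fed replicate 1), beside 0.267% to 7.47% of all genes tested. It gave 2 to 6 at 4 h against starved heads, beside 2.76% to 7.65%. At 1 h against fed heads it gave 1 to 3, beside 2.65% to 15.8%. At 4 h against fed heads it gave 1 to 4, beside 0.571% to 4.51%. It gave 0 at 1 h against starved and at 4 h against 1 h. The log2 Rh3/Rh4 difference ran from -0.19 to -0.10 at 4 h against starved heads and from -0.24 to -0.16 at 4 h against 1 h, and each passed only without replicate 4 at 4 h (adjusted exact permutation p = 0.0476). The log2 Rh5/Rh6 difference changed sign within -0.049 to 0.031 in starved against fed heads, -0.070 to 0.018 at 1 h against starved heads and -0.077 to 0.0065 at 1 h against fed heads. With the replicate number as a replicate block 1 gene was called at 4 h against fed heads (Pph13), 1 at 4 h against starved heads (ort) and 1 at 1 h against fed heads (Pph13). Of all genes tested 0.828%, 3.38% and 8.40% were called there. Same-numbered heads did not deviate together: the median correlation of their deviations was -0.026 over 27 pairs, and 2 of 21 heads were closest to a head of their own number. Heads in a group of 5 or 6 limit which differences of this size could pass.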
